A study of Mus musculus with 5 samples.

Results

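Transcripts of 10 genes that bind, sense or carry zinc were described in whole kidneys of mice aged 8 weeks. The genes were chosen by symbol and all 10 had a row among the 23997 rows of the expression table: the metallothionein genes Mt1 and Mt2, the metal sensor gene Mtf1, the zinc exporter genes Slc30a1 and Slc30a2, and the importer genes Slc39a1, Slc39a4, Slc39a5, Slc39a8 and Slc39a14. The tested kidneys gave 2 libraries whose genotype label is Pkd1 knockout (knockout 0 and 1), and they were set against 3 libraries labelled as uninduced controls (control 0, 1 and 2), also at 8 weeks. Pkd1 encodes polycystin-1, whose loss causes polycystic kidneys, and the series asked what metalloproteinases do in the widening of tubules into cysts. The mutants are named SKO in the titles and PkdTKO in the design text. The sources used here do not give the alleles, the promoter that drives deletion, the inducing agent, the strain or whether animals were pooled. The labels do not say that each library came from its own animal, so p-values measure only the spread between these libraries, which may be technical.

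Metallothioneins are small proteins rich in cysteine that hold zinc, copper and cadmium, and in the kidney they are best known for binding cadmium in the proximal tubule. The zinc-finger protein MTF-1, encoded by Mtf1, binds metal response elements when zinc is in excess and switches on the metallothionein genes and Slc30a1. Transporters of the SLC30 family move zinc out of the cytosol, into vesicles or out of the cell, and those of the SLC39 family move it into the cytosol.

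The libraries differed in more than their genotype label. Pkd1 had an FPKM (fragments mapped to a gene, scaled to its transcript length and to the library total) of 2.72 in knockout 0 and 3.60 in knockout 1, against 3.22, 3.51 and 3.49 in control 0, 1 and 2, so its level did not set the labelled groups apart. The Y-linked gene Ddx3y had 7.30 and 0.00194 in knockout 0 and 1, against 17.8, 18.6 and 17.99 in the controls, and Xist, which is expressed from the inactive X chromosome of females, had 30.8 and 80.3 against 0.0222 to 0.0275. Xist thus stood without Y-linked RNA in knockout 1, together with it in knockout 0, and near 0 beside it in the controls, so sex-linked RNA and the genotype label cannot be told apart. Knockout 0 also carried injury and macrophage transcripts far above every other library, with values given beside the results they move with. Proximal tubule markers such as Miox, Aqp1, Hnf4a and Cubn were abundant in all 5 libraries, while Lrp2 and Slc34a1 were listed at 0 in all 5. Several abundant genes are listed at exactly 0 in this table, which may be a failed estimate. None of the 10 genes had a 0 in any library.

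None of the genes passed the test between the groups. Of the 10, 9 had a mean FPKM of at least 1 and were tested, and 0 of these 9 were called (limma on log2(FPKM + 1), Benjamini-Hochberg adjusted p under 0.05), against 6.34% of the 12640 tested genes (2.73% higher and 3.62% lower). The gene below the filter was Slc39a4. At an unadjusted p under 0.05 limma gave 4 of the 9, against 29.1% of all tested genes. They were Mt2, Slc39a5 and Slc39a1, with positive differences, and Slc30a2, with a negative one. The same 4 were the genes in which the knockout and control libraries did not overlap, with 3 above and 1 below every control, a feature they share with 48.2% of all tested genes (21.9% above and 26.3% below). With genes that hold a 0 left out of the fit, 0 of the 9 were called, against 6.49% of 12553 genes. The median log2 difference of the 9 was -0.04, with a range of -0.99 to 0.85, beside a median of -0.02 over all tested genes. In whole-kidney RNA fewer cells of a type and less RNA per cell cannot be told apart.

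**Figure D1:**
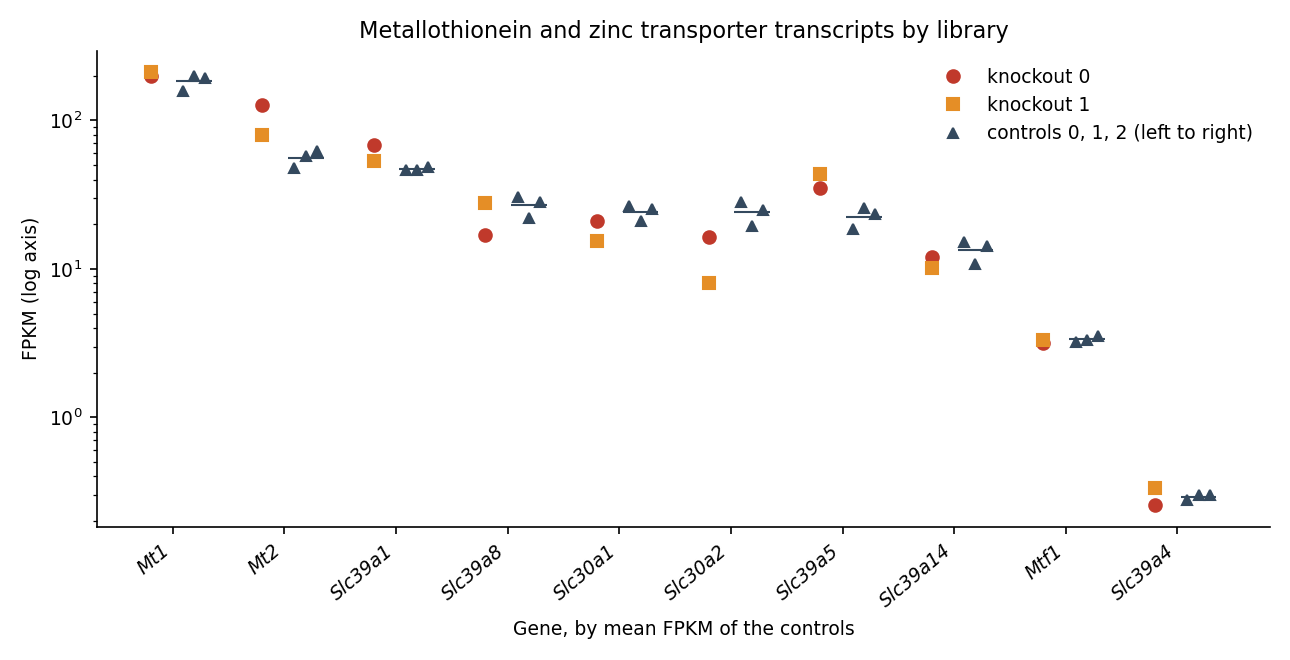
FPKM of the 10 genes on a log axis, with knockout 0 (circle) and knockout 1 (square) left of controls 0, 1 and 2 (triangles, with their mean as a line) for each gene. Mt1 is the most abundant in every library, the knockout libraries lie above every control for Mt2, Slc39a1 and Slc39a5 and below every control for Slc30a2, and the groups overlap in the others.

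Mt1 was the most abundant of the 10 transcripts in all 5 libraries and Mt2 came next. In the controls Mt1 averaged 184 ± 22.3 FPKM (SD, n = 3), above 97.9% of all rows, and Mt2 averaged 56.0 ± 7.24. Slc39a1 followed at 47.2 ± 1.502, and its control range touched that of Mt2. The next genes, Slc39a8 at 26.9 ± 4.47, Slc30a1 at 24.3 ± 2.93, Slc30a2 at 24.2 ± 4.37 and Slc39a5 at 22.5 ± 3.68, did not differ from their neighbours beyond their spread. Slc39a14 lay lower at 13.5 ± 2.32, Mtf1 at 3.36 ± 0.167 and Slc39a4 at 0.291 ± 0.0131. In both knockout libraries Slc39a5 stood at place 4 of this order, against place 7 in the control means. FPKM are scaled to transcript length, so these levels can be set side by side.

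The metallothionein genes lie next to each other on mouse chromosome 8 of the mm10 build, both on the plus strand. Mt2 (ENSMUSG00000031762.7) spans 94172664 to 94173568 and Mt1 (ENSMUSG00000031765.8) 94179082 to 94180327, with 5513 bases between them. Their promoter windows, from 250 bases before to 50 bases after a RefSeq start site, are shown because these genes are the textbook targets of MTF-1 and yet differed in how far their levels stood from the controls. The window of Slc30a1, the exporter gene that MTF-1 also controls, is given for comparison. Capitals mark each match, on either strand, to the core of the metal response element, spelled TGCACNC or TGCGCNC (a match on the minus strand reads as its reverse complement). The windows come from RefSeq (GRCm38.p6, the assembly of mm10) at chr8:94172368-94172667, chr8:94178839-94179138 and chr1:191906531-191906830, all on the plus strand.
Mt2: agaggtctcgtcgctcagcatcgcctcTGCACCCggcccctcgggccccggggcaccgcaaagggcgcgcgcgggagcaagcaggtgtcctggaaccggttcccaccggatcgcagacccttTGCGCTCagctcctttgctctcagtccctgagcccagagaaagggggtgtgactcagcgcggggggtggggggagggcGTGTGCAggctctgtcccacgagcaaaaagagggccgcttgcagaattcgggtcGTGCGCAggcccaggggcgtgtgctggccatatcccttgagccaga
Mt1: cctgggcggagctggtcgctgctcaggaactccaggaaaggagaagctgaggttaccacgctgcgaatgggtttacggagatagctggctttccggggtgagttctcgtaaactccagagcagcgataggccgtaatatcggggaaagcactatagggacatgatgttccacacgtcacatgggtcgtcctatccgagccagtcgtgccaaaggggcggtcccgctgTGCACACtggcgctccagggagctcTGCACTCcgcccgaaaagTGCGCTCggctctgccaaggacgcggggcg
Slc30a1: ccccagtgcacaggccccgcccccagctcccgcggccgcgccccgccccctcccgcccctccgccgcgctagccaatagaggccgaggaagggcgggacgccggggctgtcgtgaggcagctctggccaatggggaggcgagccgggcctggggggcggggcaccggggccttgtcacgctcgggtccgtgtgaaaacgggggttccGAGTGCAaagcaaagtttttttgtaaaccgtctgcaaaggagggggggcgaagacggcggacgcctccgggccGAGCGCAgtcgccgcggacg

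The Mt2 window held 4 matches, which start at positions -223, -128, -50 and 4 relative to its RefSeq start site. The Mt1 window held 3, at -23, 2 and 20, and the Slc30a1 window held 2. At least 1 match was present in 25.7% of the 32851 RefSeq promoter windows of this length, at least 3 in 1.97% and at least 4 in 0.517%. Of the other windows of the 10 genes, that of Slc30a2 held 2 matches, 1 of the pair of windows of Slc39a5 and 1 of the pair of Slc39a8 held 1 each, and those of Mtf1 and Slc39a1 held 0. The letters TGACNNNGC, an antioxidant response element that does not overlap with the metal response element core in these windows, occurred in 12.4% of all windows. They had 1 match in each of the windows of Mt2, Slc30a1 and Slc39a1, in 1 window of Slc39a8 and at 2 positions in 1 window of Slc39a5. A match describes the letters of the window and not a bound site. Annotated transcripts of Mt1 start at 94179082, 94179211 and 94179241, so where a match stands relative to the start depends on the transcript. Those of Mt2 start at 94172664 and 94172860, and neither is the RefSeq start site at 94172618. The windows end at 94172667 for Mt2 and at 94179138 for Mt1. Bases just before the later starts of both genes were thus not searched, and the counts of 4 and 3 hold for these windows only.

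**Figure D2:**
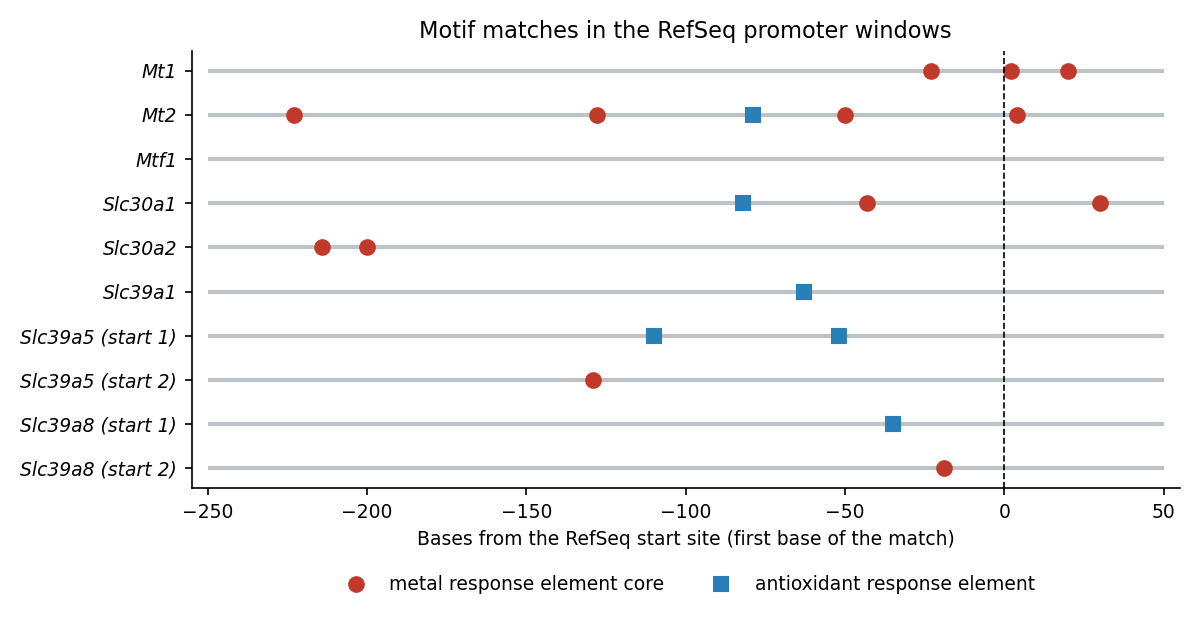
Positions of matches to the metal response element core (circles) and the antioxidant response element (squares) in the RefSeq promoter windows of 8 of the genes, from 250 bases before to 50 after the start site (dashed line). The Mt2 window holds 4 core matches and the Mt1 window holds 3, and the Mtf1 window holds neither motif.

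Mt2 stood above every control in both knockout libraries, and Mt1 did not. Mt2 had an FPKM of 127 in knockout 0 and 80.4 in knockout 1, against 48.1, 57.9 and 62.2 in control 0, 1 and 2. These levels are 2.26 and 1.43 times the control mean, and the groups did not overlap. The fitted log2 difference, knockout minus control, was 0.85 (SE 0.218, 95% interval 0.30 to 1.39), with a limma adjusted p of 0.0807. An exact two-sided permutation test over the libraries gave p = 0.1, the smallest that 2 against 3 libraries allow. A larger log2 difference was found in 2.94% of all tested genes.

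Mt2 stood farther from the controls in knockout 0 than in knockout 1. Set alone against the controls, knockout 0 had a log2 difference of 1.17 (SE 0.162, limma adjusted p = 0.0171) and knockout 1 one of 0.52 (SE 0.162, adjusted p = 0.111). Each of these fits uses 1 knockout library, which is assumed to vary like the controls. The fit of knockout 0 called 20.6% of all tested genes (11.5% higher and 9.09% lower) and that of knockout 1 called 8.34% (4.09% higher and 4.25% lower). Over all 14 alternatives the adjusted p of Mt2 ranged from 0.0171 to 0.302. Whether knockout 0 and knockout 1 differ from each other was tested for no gene.

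The value of Mt2 carries a limit of the annotation. The antisense gene Gm45774 (ENSMUSG00000110588.1), chromosome 8 from 94170748 to 94173412 on the minus strand, overlaps it, and 45.8% of the stretches of 50 bases in Mt2 transcripts occur in Gm45774 as well. Whether the counting used strand is not stated. If it did not, reads of the antisense gene cannot be told apart from those of Mt2. Mt1 shared none of its stretches of 50 bases with another annotated gene.

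Mt1 had an FPKM of 200.2 in knockout 0 and 211 in knockout 1, against 158, 201 and 192 in the controls. Knockout 0 lay within the control range and knockout 1 just above it. The log2 difference of 0.17 (SE 0.123, 95% interval -0.14 to 0.48, limma adjusted p = 0.409) was smaller in size than that of 49.1% of all tested genes. Mt2 thus amounted to 63.4% of Mt1 in knockout 0 and 38.1% in knockout 1, against 30.3%, 28.9% and 32.4% in the controls. Both knockout libraries were above the controls in this share, which was chosen after the values were seen and is independent of how a library is scaled. The summed FPKM of both genes was 327 and 291 in knockout 0 and 1, against 207, 258 and 254. Mt3, the metallothionein gene best known from neurons, had 1.74 and 2.16 against 1.88, 1.90 and 1.83, and Mt4, known from squamous epithelium, was listed at 0 in all 5 libraries.

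**Figure D3:**
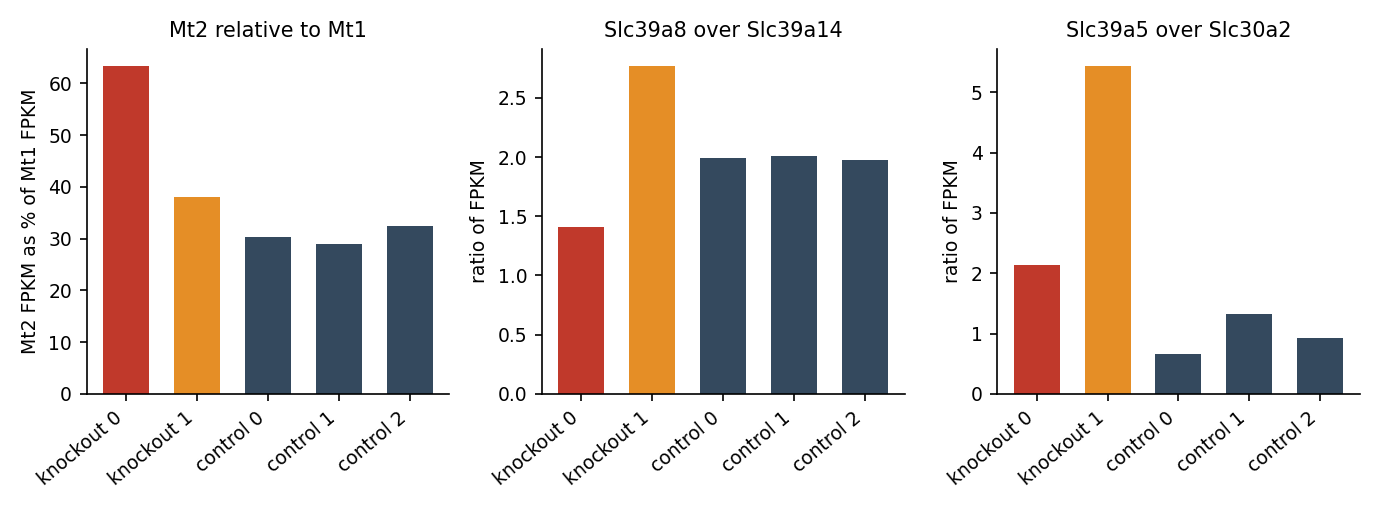
Ratios of FPKM in each library, with knockout 0 and 1 left of controls 0, 1 and 2 and bars starting at 0: Mt2 as a percentage of Mt1, Slc39a8 over Slc39a14, and Slc39a5 over Slc30a2. The share of Mt2 is 63.4% in knockout 0 and 38.1% in knockout 1, against 28.9% to 32.4% in the controls.

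Mtf1, the metal sensor, had similar levels in all 5 libraries. It had an FPKM of 3.19 and 3.30 in knockout 0 and 1, against 3.22, 3.31 and 3.55 in the controls. Its log2 difference was -0.04 (SE 0.0798, 95% interval -0.24 to 0.16) with a limma adjusted p of 0.785. The sign turned when each library was rescaled to a common sum (0.028). Mtf1 (ENSMUSG00000028890.13, chromosome 4, 124802104 to 124849800, plus strand) meets 1110065P20Rik on the opposite strand at its end, which shares 7.55% of its stretches of 50 bases. That gene was more abundant, at 18.1 and 21.3 in knockout 0 and 1, against 31.8, 34.6 and 34.2 in the controls.

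Other genes that MTF-1 is known to act on did not pass either. Of 9 such genes 7 were tested, and 0 rose and 0 fell over all genes by limma, against 2.73% and 3.62% of all tested genes. At an unadjusted p under 0.05, 3 had a positive and 0 a negative difference, against 1578 and 2102 of the 12640 tested genes. The median log2 difference was -0.01. Csrp1, a LIM protein of the cytoskeleton, had 49.9 and 43.2 in knockout 0 and 1, against 36.0, 38.6 and 36.7. The iron exporter gene Slc40a1 had 33.7 and 25.7 against 14.5, 24.2 and 17.8. Sepw1, which encodes selenoprotein W, had 121 and 127 against 74.0, 109 and 94.5. For all of these the knockout libraries lay above every control, as in 21.9% of all tested genes. Ndrg1 was listed at 0 in all 5 libraries.

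Slc30a2 lay below every control in both knockout libraries and had the largest difference of the 10 genes. Its product, ZnT2, fills vesicles and secretory granules with zinc and is best known from the mammary gland and the pancreas. The FPKM was 16.4 in knockout 0 and 8.05 in knockout 1, against 28.1, 19.5 and 25.1 in control 0, 1 and 2. Knockout 1 was at 33.2% and knockout 0 at 67.8% of the control mean. The log2 difference of -0.99 (SE 0.304, 95% interval -1.75 to -0.23) had a limma adjusted p of 0.110 and an exact permutation p of 0.1. A difference larger in size was found in 3.61% of all tested genes. Knockout 1 alone gave -1.46 (SE 0.212, limma adjusted p = 0.0355) and knockout 0 alone -0.52 (SE 0.212, adjusted p = 0.154), and over the 14 alternatives the adjusted p ranged from 0.0355 to 0.305. The lower of the knockout libraries was the one without Y-linked RNA. Slc7a13, an amino acid transporter gene of the last segment of the proximal tubule, ran in the same order, at 175 and 1.83 against 631, 306 and 524. Other proximal tubule markers did not all do so. Of the 10 tested, 4 were below and 2 above every control, against 26.3% and 21.9% of all tested genes. Those above were highest in knockout 1: Cubn, at 50.9 and 61.1 against 39.1, 42.1 and 38.2, and Slc22a8, at 253 and 337 against 174, 203 and 189. The part of the sex of the RNA in the level of Slc30a2 was not tested. The acinar markers Pnlip and Amy2a5 were listed at 0 in all 5 libraries, and Cpa1, Cpb1, Cel and Ctrb1 were at most 0.0279 in every one. Cela1 was at 61.0 and 70.4 against 61.7, 90.5 and 64.3.

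Slc30a1 encodes ZnT1, the exporter of the cell surface that protects cells from excess zinc. It had an FPKM of 21.1 and 15.4 in knockout 0 and 1, against 26.5, 21.0 and 25.4 in the controls, so that knockout 0 fell inside the control range. Its log2 difference of -0.41 (SE 0.165, 95% interval -0.82 to 0.01, limma adjusted p = 0.177) was opposite in sign to that of Mt2. Slc30a1 overlaps the antisense gene 1700034H15Rik, which was at 0.823 and 1.07 against 0.560, 0.629 and 0.642. Slc30a1 (ENSMUSG00000037434.7) lies on chromosome 1 from 191906767 to 191913247, and Slc30a2 (ENSMUSG00000028836.14) on chromosome 4 from 134343181 to 134354484, both on the plus strand.

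Slc39a5 came closest to the threshold, and each knockout library exceeded all 3 controls. It encodes ZIP5, an importer of the basolateral membrane known from intestine and pancreas. The FPKM was 34.97 in knockout 0 and 43.8 in knockout 1, against 18.5, 25.7 and 23.4 in the controls, or 1.55 and 1.95 times the control mean. The log2 difference was 0.78 (SE 0.168, 95% interval 0.36 to 1.21), with a limma adjusted p of 0.0576 and an exact permutation p of 0.1. Among genes with a mean FPKM of at least 5, fewer in number, the adjusted p was 0.0477, where 9.12% of 9160 genes were called, and over the 14 alternatives it ranged from 0.0477 to 0.211. Alone of the genes without overlap, Slc39a5 and Slc30a2 stood farther from the controls in knockout 1 than in knockout 0. Knockout 1 alone gave 0.94 (SE 0.194, limma adjusted p = 0.0587) and knockout 0 alone 0.63 (SE 0.194, adjusted p = 0.0906). The ratio of Slc39a5 to Slc30a2 was 2.13 and 5.44 in knockout 0 and 1, against 0.658, 1.32 and 0.930 in the controls. Slc39a5 (ENSMUSG00000039878.13, chromosome 10, 128395931 to 128401229, minus strand) lies within the span of Ankrd52 on the opposite strand but shares 0% of its stretches of 50 bases with that gene's transcripts.

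Slc39a1 encodes ZIP1, an importer found in most cells. It had an FPKM of 68.4 and 53.1 in knockout 0 and 1, against 46.4, 46.3 and 48.9 in the controls, which spread by 3.18% of their mean. Both knockout libraries lay above the controls, knockout 0 by the wider margin. The log2 difference was 0.35 (SE 0.120, 95% interval 0.05 to 0.65, limma adjusted p = 0.135, exact permutation p = 0.1). Knockout 0 alone gave 0.53 (SE 0.0759, limma adjusted p = 0.0188) and knockout 1 alone 0.17 (SE 0.0753, adjusted p = 0.200), and over the 14 alternatives the adjusted p ranged from 0.0188 to 0.355. Slc39a1 (ENSMUSG00000052310.9, chromosome 3, 90248172 to 90253612, plus strand) shares 21.8% of its stretches of 50 bases with the pseudogene Slc39a1-ps, so its value is uncertain.

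Slc39a8 and Slc39a14 encode ZIP8 and ZIP14, close relatives that carry manganese, iron and cadmium as well as zinc. Slc39a8 had an FPKM of 16.9 in knockout 0 and 28.0 in knockout 1, against 30.5, 21.9 and 28.2 in the controls. Only knockout 0 lay below the controls, and the log2 difference of -0.28 (SE 0.243, 95% interval -0.89 to 0.33, limma adjusted p = 0.489) turned to 0.070 without it. Slc39a14 had 11.9 and 10.1 against 15.3, 10.9 and 14.3, with a log2 difference of -0.26 (SE 0.159, 95% interval -0.66 to 0.14). Its limma adjusted p was 0.331 and its groups overlapped. Slc39a8 was at 1.995, 2.01 and 1.98 times Slc39a14 in the 3 controls. The knockout libraries left this narrow range on either side, at 1.41 in knockout 0 and 2.77 in knockout 1. This ratio was chosen after the values were seen. Slc39a8 (ENSMUSG00000053897.15) lies on chromosome 3 from 135825279 to 135888572, plus strand, and Slc39a14 (ENSMUSG00000022094.15) on chromosome 14 from 70303469 to 70351425, minus strand.

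Slc39a4 encodes ZIP4, the importer through which the intestine takes up dietary zinc and whose loss causes acrodermatitis enteropathica in people. It was scarce in every kidney library, at 0.257 and 0.335 in knockout 0 and 1, against 0.276, 0.299 and 0.298, and the groups overlapped. Fitted with no filter on low values, its log2 difference was 0.01 (limma adjusted p = 0.942). The gene (ENSMUSG00000063354.7) lies on chromosome 15 from 76612383 to 76617384, minus strand.

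**Figure D4:**
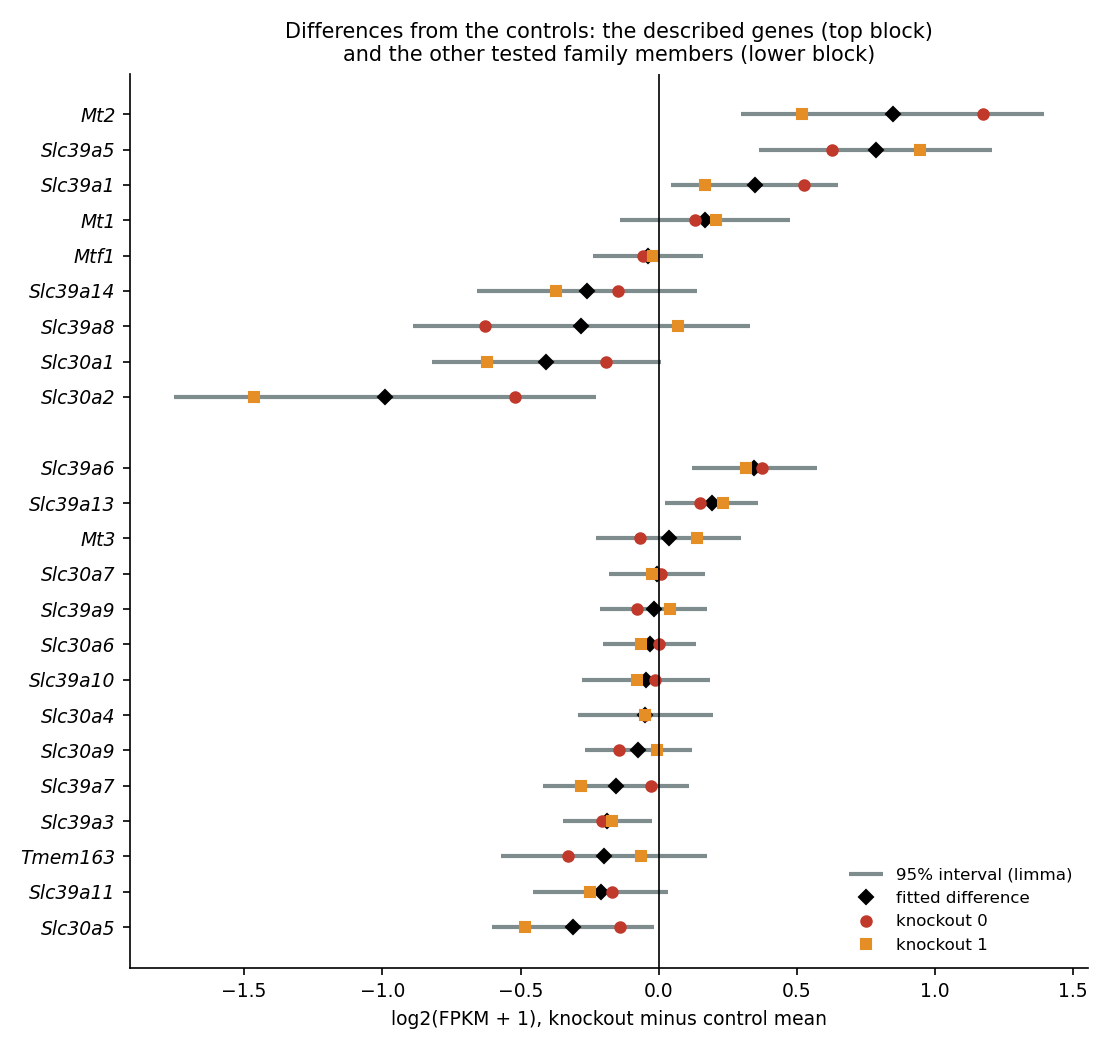
Differences in log2(FPKM + 1), knockout minus control, for the 9 tested genes (top block) and 14 other tested members of the metallothionein and zinc transporter families (lower block), with the fitted value (diamond), its 95% interval from limma and each knockout library against the control mean (circle, square). Mt2 and Slc39a5 have the highest and Slc30a2 the lowest fitted value, and the lower block lies between -0.31 and 0.34.

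The remaining tested genes of both families had fitted log2 differences between -0.31 and 0.34. Of 20 further metallothionein and zinc transporter genes 14 were tested. By limma 0 rose and 0 fell over all genes, against 2.73% and 3.62% of all tested genes. At an unadjusted p under 0.05, 2 were positive and 2 negative, against 1578 and 2102 of the 12640 tested genes. The median log2 difference was -0.05. The groups did not overlap in 5 of the 14, against 48.2% of all tested genes. Slc39a6, an importer gene of the LIV-1 subfamily, had 3.38 and 3.22 in knockout 0 and 1, against 2.31, 2.60 and 2.25 (log2 0.34, SE 0.0901, limma adjusted p = 0.0828). Slc39a13, whose product supplies zinc from vesicles of the secretory pathway, had 22.7 and 24.1 against 20.0, 20.9 and 20.1. Slc30a5, an exporter gene of the Golgi and secretory vesicles, had 31.1 and 24.3 against 35.7, 33.0 and 34.5, and Slc39a3 had 8.73 and 8.97 against 10.5, 9.91 and 10.2. Slc39a11 was also below every control, at 13.5 and 12.7 against 16.4, 13.7 and 16.04. Slc30a9, the most abundant of these transporter genes, had 55.3 and 60.9 against 63.2, 59.5 and 60.9. Slc39a7, a zinc channel gene of the endoplasmic reticulum, had 50.4 and 42.2 against 54.1, 48.0 and 52.4.

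Transcripts of inflammation and injury stood beside Mt2 and Slc39a1 in being highest in knockout 0. IL-6 and other acute phase signals are known to induce metallothioneins and Slc39a14 in mouse liver. Of 11 tested genes of this response 1 rose and 0 fell by limma, against 2.73% and 3.62% of all tested genes. The list median was 1.76 in knockout 0 and 0.23 in knockout 1. Of the 11, 6 were above and 1 below every control, against 21.9% and 26.3% of all tested genes. Hp was below, at 0.995 and 0.787 in knockout 0 and 1 against 1.56, 1.06 and 1.28. Fga had 48.9 and 8.14 against 16.9, 11.1 and 13.8, so knockout 1 was below the controls. The gene that passed was C3, the complement component, at 39.7 and 12.6 against 2.76, 2.49 and 2.53 (limma adjusted p = 0.0362). Socs3, a feedback inhibitor induced by IL-6, had 9.35 and 2.04 against 0.803, 0.856 and 0.891, and Slc39a14 did not share this pattern. By limma 0 of 8 tested macrophage markers were called, against 6.34% of all tested genes. All 8 were above every control in both knockout libraries, against 21.9% of all tested genes. The summed level of the 9 macrophage markers was 339 and 118 against 78.1 to 88.8. The summed level of 9 tubule injury markers was 823 in knockout 0 and 222 in knockout 1, against 268 to 279 in the controls. Of the 8 tested injury markers 0 were called by limma. In both knockout libraries 3 of them were above every control, against 21.9% of all tested genes. Havcr1 and Lcn2 were high in knockout 0 alone, at 137 and 132, and had 0.593 and 4.87 in knockout 1, against at most 1.12 and 6.86 in the controls. Vcam1 had 24.2 and 5.42 in knockout 0 and 1, against at most 3.04, and Vim had 55.1 and 32.5 against at most 29.04. Krt20 had 11.5 and 0.808 against at most 0.725, and Sox9, below the filter, had 3.72 and 0.373 against at most 0.301. The part of these cells and of injury in the levels of Mt2 and Slc39a1 was not tested.

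Glucocorticoids are another known inducer of Mt1 and Mt2, and their part in the levels of these genes was not tested. Of 11 tested genes that glucocorticoids induce 0 rose and 2 fell by limma, against 2.73% and 3.62% of all tested genes. The median log2 difference was -0.37, with a range of -0.88 to 2.09 (Lcn2, also in the acute phase list). Tsc22d3, which encodes the glucocorticoid-induced leucine zipper protein, fell to 24.4 and 24.1 in knockout 0 and 1, against 38.3, 37.1 and 43.3 (limma adjusted p = 0.0255). Ddit4, an inhibitor of mTORC1, fell to 11.3 in both knockout libraries, against 18.3, 16.6 and 19.4 (adjusted p = 0.0258). Targets of the oxidative stress factor NRF2 gave 0 rises and 1 fall among 9 tested genes and a median of -0.25. Gstm1, a glutathione transferase, fell to 296 and 252, against 486, 437 and 414 (limma adjusted p = 0.0372). The median of this list was -0.11 in knockout 0 and -0.33 in knockout 1. Gstm1, Gclm, Nqo1, Osgin1 and Sqstm1, 5 of the 9, were below every control in both knockout libraries, against 26.3% of all tested genes. Hmox1, the heme-degrading oxygenase, was at 1.83 times the control mean in knockout 0 and 0.496 times in knockout 1. Txnrd1, Gclc and Srxn1 were likewise above the control mean in knockout 0, at 1.12, 1.11 and 1.07 times. They were below it in knockout 1, at 0.811, 0.786 and 0.877 times. The part of NRF2 in the levels of Mt1 and Mt2 was not tested.

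Of 15 tested genes of copper handling, the other metal that metallothioneins hold, 2 rose, 1 fell and 12 did not pass by limma, against 2.73% higher and 3.62% lower over all tested genes, with a median log2 difference of -0.19. Ccs, the chaperone that loads copper into superoxide dismutase 1, fell to 77.8 and 79.6 in knockout 0 and 1, against 112, 122 and 111 (limma adjusted p = 0.0285). Its client Sod1 had 807 and 1002 against 1361, 1283 and 1498 (adjusted p = 0.0597), and the copper importer gene Slc31a1 had 54.7 and 47.4 against 74.9, 69.2 and 67.5 (adjusted p = 0.0532). Cp, the copper-bearing ferroxidase ceruloplasmin, rose to 33.4 and 19.1, against 8.07, 9.96 and 8.64 (adjusted p = 0.0372), and Steap2, a metalloreductase, rose to 20.1 and 21.4, against 12.6, 15.6 and 12.4 (adjusted p = 0.0474). Of the 7 calls named in these lists 0 were kept without control 0, 0 without control 1 and 0 without control 2. Over all tested genes those fits called 37, 155 and 36. With a block for the replicate number 0 of the 7 were kept, with no filter 3, after quantile scaling 5 and with no variance trend 6. The other changes of pseudocount, filter or scaling kept all 7.

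**Figure D5:**
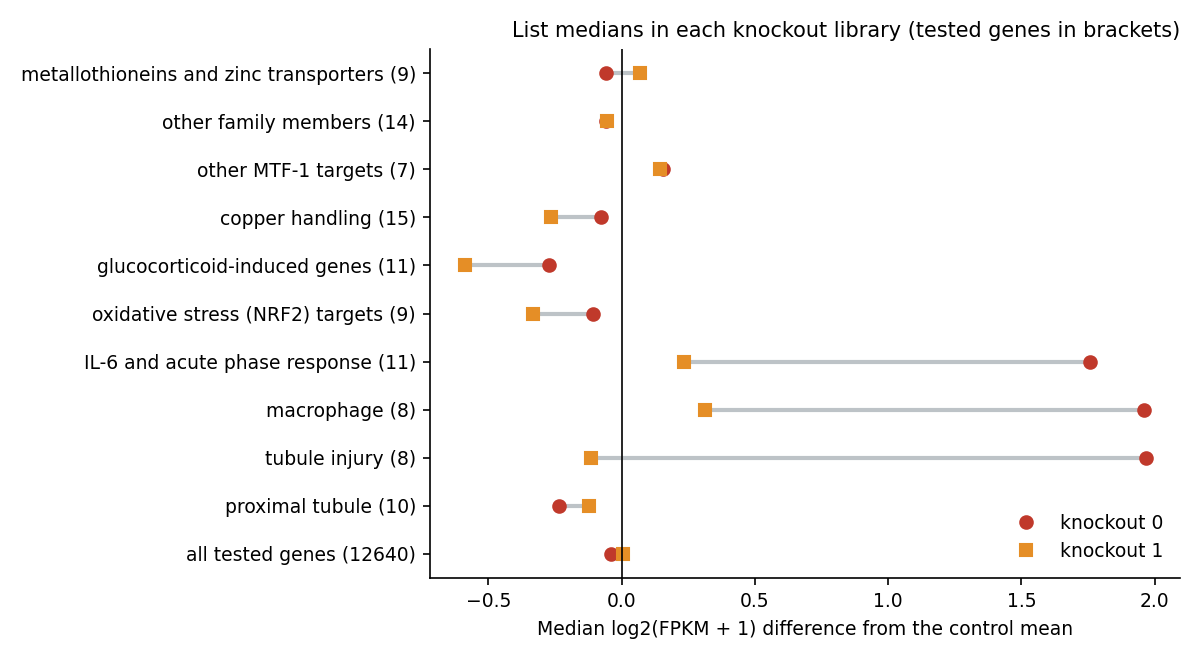
Median difference in log2(FPKM + 1) from the control mean in knockout 0 (circle) and knockout 1 (square) for each gene list, with the number of tested genes in brackets. The acute phase, macrophage and injury lists lie far to the right in knockout 0, at 1.76, 1.96 and 1.97, whereas the metallothionein and zinc transporter lists lie near the median of all tested genes.

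The genes most like each of the 10 were sought by the summed squared difference of their centred log2(FPKM + 1) values over the 5 libraries. The search covered 11786 tested genes with no 0, with predicted gene models, Riken names and repeated symbols left out. For Mt2 the nearest were H2-Q5, a class I histocompatibility gene (summed squared difference 0.0213), and Myadm (0.0226). Myadm had 30.4 and 20.9 in knockout 0 and 1, against 11.8, 14.5 and 14.02. For Mt1 they were Slc26a6, an anion exchanger gene of the proximal tubule, and Armcx1, and for Slc39a5 Cyp2d22 and Tbxas1. Slc30a2 was nearest to Pigr, the receptor that carries IgA across epithelia, at 67.9 and 33.1 against 97.9, 74.4 and 99.98. Slc39a1 was nearest to Rhbdf1 and Slc30a1 to Fhl1, and Slc39a8 to Neo1. With 5 libraries such likeness describes these samples only.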

How the data were processed

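Whole-kidney RNA was sequenced in 2 knockout and 3 control libraries, grouped by genotype label. The deposited table holds FPKM computed by the authors, with each value column matched to a library and 0 columns left over. The submitters' processing notes name bcl2fastq and the mm10 build. The aligner, FPKM program, annotation and strandedness are not stated in the sources used here. Depth is unknown, so counting intervals and count tests were not possible.

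Differences were computed here on log2(FPKM + 1), which understates the change of low genes, for 12640 rows whose mean FPKM reached 1. They were tested two-sided with limma 3.58.1 (R 4.3.3, eBayes with a variance trend), Benjamini-Hochberg adjusted over all tested rows at a threshold of 0.05, and the fit was tested on simulated data. The exact permutation test used the difference of means (scipy 1.17.1). Tables used Python 3.11.15 and pandas 2.3.3, plots matplotlib 3.10.9. FPKM summed to 493226 and 462814 in knockout 0 and 1, against 504914 to 507053 in the controls.

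The 10 genes, the lists and the alternatives were chosen with earlier results of these data known. Named from each list were up to 4 called genes or, with 0 called, the 3 of lowest p. Other names (Socs3, Havcr1, Lcn2, Slc7a13, Sod1, Slc31a1, Ndrg1, sex-linked and marker genes) and the ratios were chosen after their values were seen. So were the named NRF2 targets other than Gstm1. Older symbols were matched through RefSeq synonyms. Positions and transcripts come from GENCODE M21 (mm10), promoters from RefSeq (8 of 10 genes matched, Slc39a4 and Slc39a14 not). Alternatives were other pseudocounts, filters, scalings, no variance trend, a replicate block and leaving out each library.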

Additional observations from a re-analysis of the deposited data

How the results depend on the processing

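Of the 9 tested genes 0 were called under the main settings, and 0 also with a pseudocount of 0.1, with no filter, after TPM, median-of-ratios or quantile scaling, with no variance trend, with genes listed at 0 left out and under the replicate block. With a mean FPKM of at least 5, where fewer genes are tested, 1 was called (Slc39a5). Without control 0, control 1 or control 2, 0 of the 9 were called, against 37, 155 and 36 of all 12640 tested genes. Fits without knockout 0 or knockout 1 leave 1 library in that group, so their calls are not read as results. Their log2 differences are given above for Mt2, Slc30a2, Slc39a1 and Slc39a5. Directions held in all alternatives except for Mtf1 after TPM rescaling (0.028) and Slc39a8 without knockout 0 (0.070, against -0.63 without knockout 1), and the cause was not tested. Over all genes 802 were called, 482 with no filter, 28 with the replicate block, and 36 to 2599 without 1 library. The lowest counts, 37 and 36, came without control 0 and control 2, and 155 without control 1. The split was 345 higher and 457 lower, or 454 and 266 after TPM rescaling, which moved the median of all genes by 0.07. The labels do not say that equal replicate numbers pair the libraries, so the block rests on the number alone. Deviations of same-numbered libraries correlated at 0.0863 and 0.00236. With 2 knockout libraries their deviations mirror each other, so these correlations cannot decide whether the libraries are paired.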

Other observations

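Within the 3 controls several transporter genes moved alike. Slc30a1, Slc30a2, Slc39a8 and Slc39a14 were each lowest in control 1 and highest in control 0, whereas Slc39a5 and Mt1 were highest in control 1 and lowest in control 0. These orders are not particular to the zinc genes. Hnf4a had 228, 175 and 211 in control 0, 1 and 2, and Gclc had 114, 84.2 and 91.0, in the order of Slc30a1. Sgk1 had 46.4, 87.8 and 70.0, in the order of Slc39a5. The share of all tested genes with either order was not counted. The pattern was noticed after the values were seen and was not tested, and the genotype label does not describe it.

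Markers of other tissue and of the distal nephron gave these values. Adipoq, the adipocyte hormone adiponectin, had an FPKM of 0.0569 and 0.515 in knockout 0 and 1, against 2.77, 1.29 and 1.65 in the controls. The urothelial gene Upk3a had 0.858 and 2.47 against 4.81, 6.39 and 5.51. Of 6 tested urothelial markers limma called 0, and 4 were below and 1 above every control. The shares over all tested genes were 26.3% and 21.9%. The marker above was Krt20, given with the injury markers. Of 8 tested markers of the loop of Henle and distal tubule, limma called 1 higher and 1 lower. The shares over all tested genes were 2.73% and 3.62%, and the median log2 difference of the 8 was -0.09. The one called higher, Umod, had 784 and 1144 and is listed at exactly 0 in all 3 controls. Its call rests on these 0 values, so no rise of Umod is read from it. Whether the 0 values are true levels was not tested. Calb1, the calcium-binding protein of the distal convoluted tubule, fell to 101 and 149, against 264, 288 and 245 (limma adjusted p = 0.0362). Pvalb, parvalbumin of the same segment, had 8.98 and 23.1 against 34.4, 39.2 and 35.6 (adjusted p = 0.0969). Slc12a3, the sodium chloride transporter of that segment, had 124 and 225 against 166, 149 and 173, and the groups also overlapped in Slc12a1, Cldn16, Kcnj1 and Trpm6. Their part in the levels of the zinc genes was not tested.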
